A study of Homo sapiens with 36 samples.

Results

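The regions described here were called as peaks for every exogenous form of a tagged hypoxia-inducible factor (HIF) and were not called for the endogenous protein. Cut&Run, in which an antibody directs a nuclease to chromatin and the released DNA fragments are sequenced, had been done with an antibody against the V5 tag in 6 lines of 786-O human clear cell renal carcinoma cells. They were selected on the peak calls. Peaks of all 18 anti-V5 lists were merged where they overlapped, and a region was kept if it held a peak in at least 2 of the 3 lists of each of the 4 exogenous lines, in 0 of 3 lists of the endogenous knock-in and in 0 of 3 lists of untagged cells. This left 604 of 61215 merged regions, or of 25783 consensus regions with a peak in at least 2 lists. They are called gained regions below. The presence and absence of calls chose them, so those calls are described and not tested.

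All 6 lines share the 786-O background, which lacks functional VHL and HIF-1a, so that HIF-2a is stable in normal oxygen. The WT line carries no tag and gives the antibody background. HIF-2a KIN is a single homozygous clone, A31, with V5 and Halo on the endogenous HIF-2a. The other 4 lines express a V5-Halo fusion from the L30 promoter after PiggyBac transposition and puromycin selection, on top of the untagged endogenous HIF-2a. They carry HIF-2a, HIF-1a, the chimera HIF-2a/1a (residues 1 to 365 of HIF-2a, then 364 to 826 of HIF-1a) or the chimera HIF-1a/2a (residues 1 to 363 of HIF-1a, then 366 to 870 of HIF-2a). In a chimera's name, the protein before the slash supplies the DNA-binding domain (DBD) and the protein after it supplies the intrinsically disordered region (IDR). Each line had 3 anti-V5 libraries, each with its own IgG control. The methods describe uneven expression among cells of the exogenous lines. More tagged protein per cell, more expressing cells and the form of the protein cannot be told apart as sources of a stronger signal.

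HIF-α subunits pair with HIF-1β (ARNT) and bind the hypoxia response element (HRE), whose core is ACGTG or GCGTG, at promoters and enhancers of genes for glycolysis, vessel growth and red cell production. In clear cell renal carcinoma loss of VHL, which marks HIF-α for destruction, leaves HIF active without hypoxia. So short a core occurs at far more places than HIF occupies, and accessible chromatin and partner factors such as AP-1 are known to mark many of the occupied ones.

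The deposited lists held 392 to 9508 peaks in WT, 3984 to 13193 in HIF-2a KIN and 5906 to 20808 in the exogenous lines. Depth, solved from the deposited fold and p-values as the genome-wide mean pileup, was 0.241 to 0.625 fragments per base. Within every line replicate 2 had the longest list. For replicates 1, 2 and 3 the gained regions with a peak numbered 408, 603 and 377 of 604 in HIF-2a, 566, 597 and 502 in HIF-2a/1a, 514, 594 and 556 in HIF-1a, and 502, 571 and 505 in HIF-1a/2a. HIF-2a replicates 1 and 3 therefore called fewest. Of the 604 regions, 424 had a peak in just 2 of 3 HIF-2a lists, against 147 in HIF-2a/1a, 148 in HIF-1a and 234 in HIF-1a/2a. A further 864 regions fell just outside because a single HIF-2a list held them, with the other conditions met. Only 56, 64 and 143 did so for HIF-2a/1a, HIF-1a and HIF-1a/2a. On the side of the endogenous protein, 814 regions that met the exogenous condition and had no WT peak had a peak in 1 KIN list, which was KIN replicate 2 for 491 of them. A peak in 1 WT list excluded 58. The count was 182 without HIF-2a replicate 2, 376 without HIF-2a replicate 1 and 1095 without KIN replicate 2. The selection removed every region that touches a KIN peak, so the distance to the next one is a description only. The nearest KIN peak lay at a median distance of 35557 bp, and 12 of 604 (1.99%) had one within 1 kb. For shared and consensus regions the nearest KIN peak outside the region lay at medians of 15479 and 23185 bp, and 7.38% and 5.51% had one within 1 kb.

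**Figure D1:**
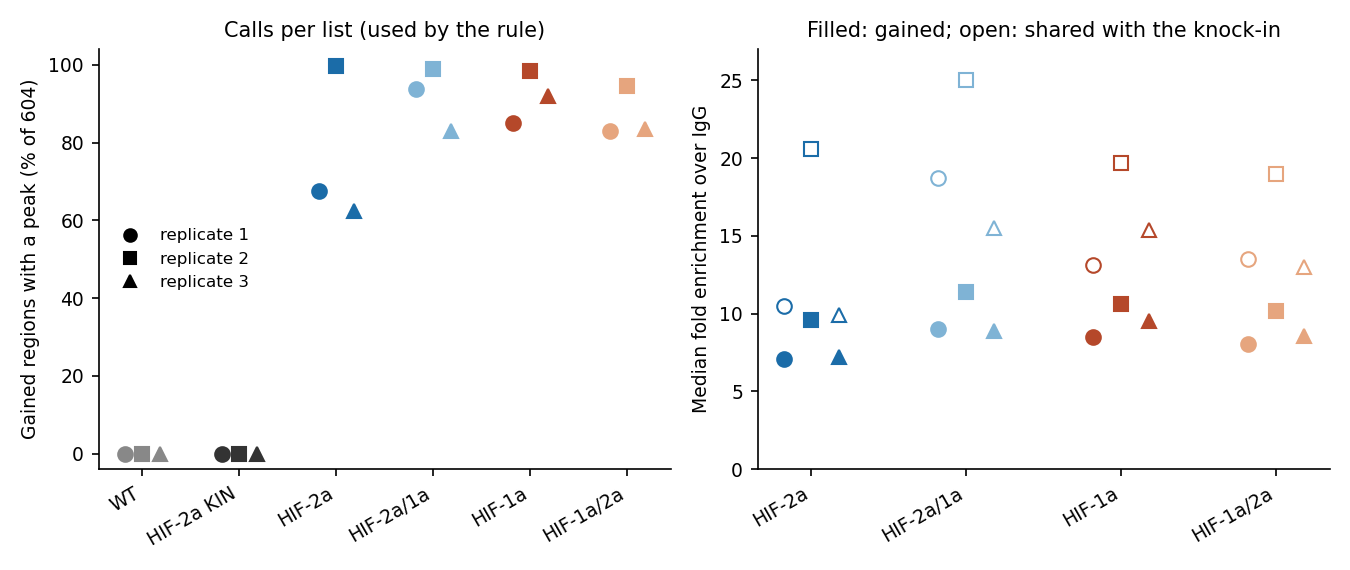
Left, the percent of the 604 gained regions with a peak in each anti-V5 list, which the selection itself fixed at 0 for WT and HIF-2a KIN. Right, the median fold enrichment over IgG of gained regions (filled) and of 2547 regions shared with the knock-in (open) in each exogenous library. Marker shape gives the replicate. Gained regions had medians of 7.10 to 11.4 and lay below the shared regions in each of the 12 libraries.

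The sequences under the strongest gained regions are shown first, since they carry what the motif counts below summarize. Each line gives 101 bases centred on the summit, from the plus strand of hg38, 5′ to 3′. Capitals mark an HRE core, which reads CACGT or CACGC where it lies on the minus strand. The 8 were the highest in mean log2 fold, centred on each library's median, among the strongest regions, leaving out those whose sequence is not shown here.
PPP2R2C (chr4:6516966-6517066): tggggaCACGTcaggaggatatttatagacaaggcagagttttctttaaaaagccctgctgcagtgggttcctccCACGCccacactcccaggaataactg
TFCP2L1 (chr2:121094336-121094436): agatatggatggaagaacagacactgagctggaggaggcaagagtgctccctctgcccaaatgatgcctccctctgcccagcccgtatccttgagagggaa
ASTN2 (chr9:117135087-117135187): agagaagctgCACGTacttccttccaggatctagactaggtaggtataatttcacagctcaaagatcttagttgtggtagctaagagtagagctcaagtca
SEMA6A (chr5:116764267-116764367): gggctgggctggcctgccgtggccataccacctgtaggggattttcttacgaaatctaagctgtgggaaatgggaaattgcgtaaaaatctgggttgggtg
OSR1 (chr2:19124357-19124457): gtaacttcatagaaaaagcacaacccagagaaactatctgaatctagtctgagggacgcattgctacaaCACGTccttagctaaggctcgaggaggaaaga
LAMA4 (chr6:112206045-112206145): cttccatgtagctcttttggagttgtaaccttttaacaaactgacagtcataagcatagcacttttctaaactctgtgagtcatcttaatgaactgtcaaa
SLAMF7 (chr1:160748537-160748637): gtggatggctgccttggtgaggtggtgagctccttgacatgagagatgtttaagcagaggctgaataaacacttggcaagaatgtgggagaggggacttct
TCF7L2 (chr10:113097251-113097351): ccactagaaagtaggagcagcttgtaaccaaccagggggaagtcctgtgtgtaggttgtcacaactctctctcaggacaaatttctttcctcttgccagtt

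Of these 8 windows 3 held an HRE core. PPP2R2C, which encodes a regulatory subunit of protein phosphatase 2A, had 2 cores on either side of its summit, within an intron. ASTN2, an astrotactin gene, held the longer form TACGTG on the minus strand, also within an intron. The core near OSR1, which encodes a kidney and mesoderm transcription factor, lay in intergenic sequence 234216 bp from the OSR1 start site. In SEMA6A, SLAMF7 and TCF7L2 the nearest core stood 82, 88 and 89 bp from the summit, outside the windows shown. The LAMA4 window had no HRE core but an AP-1 site, TGAGTCA, starting 26 bp after its summit. LAMA4 encodes a laminin chain of vessel basement membranes. At TFCP2L1 the nearest core was 287 bp away.

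Gained regions were weaker in the exogenous lines than regions that the knock-in shares. The comparison set, called shared regions, held 2547 regions that met the same exogenous condition with a peak in at least 2 of 3 KIN lists and no WT peak. Fold enrichment is the value MACS2 deposits for the summit over the local IgG background. The mean over a region's called exogenous libraries had a median of 9.95 over gained regions (quartiles 7.88 and 13.0), 17.4 over shared regions (12.3 and 26.5) and 7.70 over the 25660 consensus regions called in an exogenous library (6.24 and 10.2). The fragments at the summit, recovered as whole numbers, had medians of 24.0, 46.0 and 18.0. The 814 regions with 1 KIN list lay between gained and shared regions, with a median fold of 10.8 and 28.0 fragments. Gained regions spanned a median of 906 bp, against 1345 bp for shared regions. The regions that met the exogenous condition without a WT peak were split by strength into 5 groups of 793. In the weakest group 34.0% had no KIN peak. The share was 20.3%, 13.0% and 7.19% in the following groups and 1.64% (13 regions) in the strongest. Strength here comes from libraries that the selection used, and it carries no test. Where a KIN peak is missing, too few fragments and no binding cannot be told apart. The KIN lists reached a median fold of 8.04 to 11.8 at the shared regions, the exogenous lists 9.93 to 25.0.

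**Figure D2:**
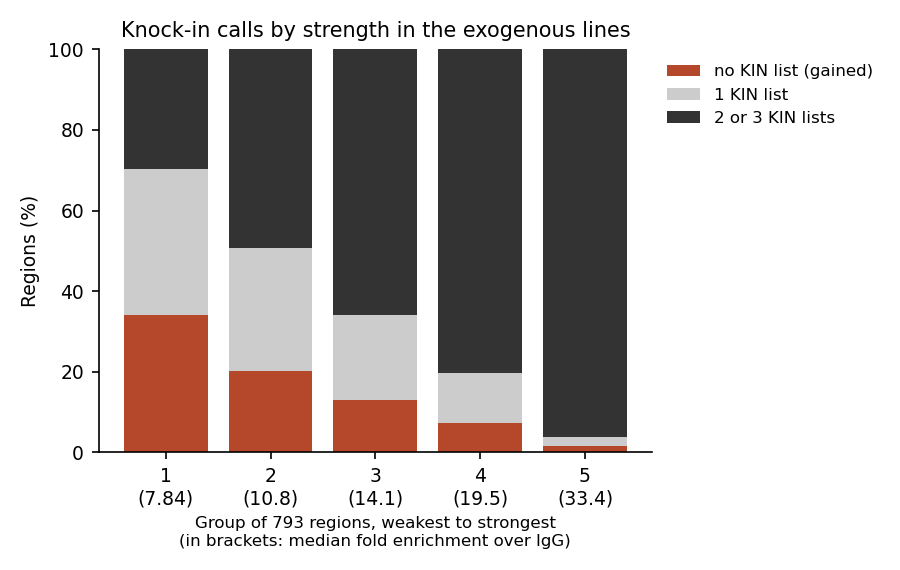
Regions with a peak in at least 2 of 3 lists of each exogenous line and no WT peak, in groups of 793 by mean centred log2 fold (x axis, with the median fold enrichment in brackets), and the percent of each group with a peak in no, 1 or at least 2 KIN lists (y axis). Regions without a KIN peak made up 34.0% of the weakest group and 1.64% of the strongest.

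An HRE core lay within 50 bp of the summit in 181 of 604 gained regions, or 30.0% (exact 95% binomial interval 26.3 to 33.8%, counting error only). In equally wide flanks, placed 1 kb away, the share was 15.8%. Shared regions had 32.8% (31.0 to 34.6%) with flanks at 14.5%, and all consensus regions 24.5% with flanks at 14.3%. The interval of the gained regions overlapped that of the shared regions and lay above that of the consensus (23.9 to 25.0%). No test over regions was made. Since the sets also differ in strength, the share is given within the 5 strength groups. In the weakest group the share was 32.2% of 270 regions without a KIN peak and 25.1% of 235 with 2 or 3, and in the next group 27.3% of 161 and 35.1% of 390. In the remaining groups it was 31.1% of 103 and 32.0% of 522, 26.3% of 57 and 36.4% of 637, and 23.1% of 13 and 31.5% of 763. The share was thus lower without a KIN peak in 4 of 5 groups and higher in the weakest, which holds most of the gained regions of any group. Of those 4, the middle group was a near tie (31.1% and 32.0%), and the strongest rests on 13 regions.

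HRE cores were most frequent beside the summit and not under it. Counted in bins of 25 bp to either side, a core was found in 14.7% of gained regions within 25 bp of the summit, in 23.3% at 75 to 100 bp and in 22.0% at 100 to 125 bp. From 225 bp outward the bins held 7.45 to 12.9%. Shared regions had the same shape with a higher crest, 29.6% at 75 to 100 bp against 17.7% at the summit. All consensus regions reached 16.5% there. With 100 bp to each side the share of gained regions with a core rose to 56.3%, against 65.9% of shared regions and 45.7% of the consensus. On that wider window gained regions fell about midway between both sets. The summit of a region is the median over its exogenous libraries, which for gained regions had a median SD of 40.6 bp.

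**Figure D3:**
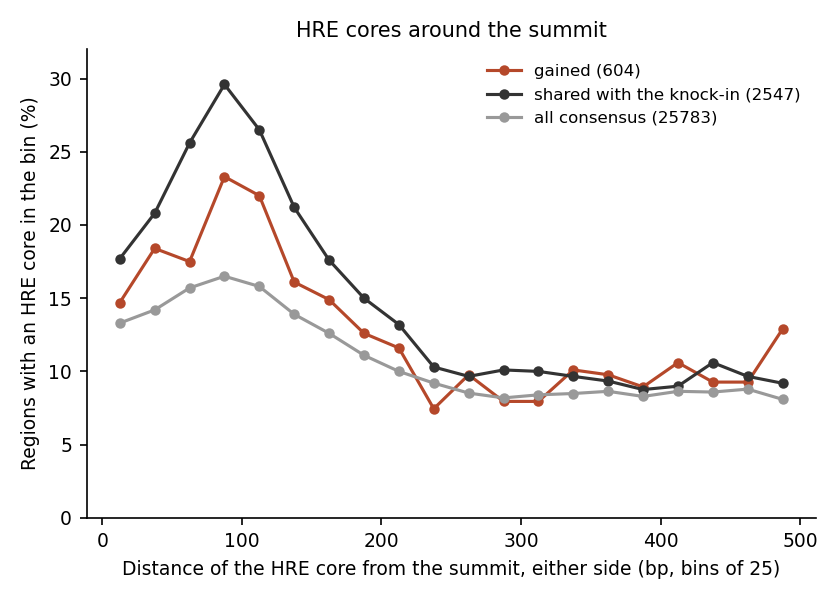
Percent of regions with at least 1 HRE core (ACGTG or GCGTG, both strands) in each 25 bp bin of distance from the summit, both sides joined, for 604 gained, 2547 shared and 25783 consensus regions. All curves crest at 75 to 100 bp, at 23.3% for gained and 29.6% for shared regions, and fall to about the consensus level beyond 225 bp.

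The base before the core was counted as well. TACGTG, the full consensus, lay within 50 bp of the summit in 19 gained regions (3.15%, exact 95% interval 1.90 to 4.87%), in 5.42% of shared regions (4.57 to 6.37%) and in 2.80% of all consensus regions. Among gained regions with a core, GGCGTG was the most frequent hexamer, in 43 of 181 (23.8%), and TACGTG stood in 10.5%. In shared regions with a core TGCGTG led with 20.7%, and TACGTG stood in 16.6%. Consensus regions with a core were close to the gained ones, with GGCGTG in 22.9% and TACGTG in 11.5%. The E-box CACGTG, which overlaps the HRE core and is also bound by MYC and related factors, occurred in 2.81%, 3.85% and 2.71% of gained, shared and consensus regions.

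Motifs of other factors were counted in the same windows. AP-1 sites (TGACTCA or TGAGTCA), bound by JUN and FOS dimers, were found in 10.3% of gained regions (exact 95% interval 7.96 to 13.0%), 7.73% of shared and 8.34% of consensus regions, with flanks at 1.57%, 1.81% and 1.72%. The TEAD core GGAATG was found in 10.3% of gained (7.96 to 13.0%), 6.95% of shared and 7.49% of consensus regions, with flanks at 5.55%, 5.26% and 5.37%. Away from promoters AP-1 was present in 14.0% and TEAD in 13.0% of gained regions, against 10.4% and 8.55% of shared ones. By strength group, weakest first and at all positions, AP-1 was in 10.4, 12.4, 8.74, 7.02 and 7.69% of regions without a KIN peak. With 2 or 3 KIN lists it was in 8.09, 6.92, 7.09, 6.91 and 9.17%. The excess thus lay in the weaker groups. The GC box GGGCGG was less frequent, with 12.9%, 15.5% and 13.9%. All these motifs were searched on both strands, and a match is a match of letters only.

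Promoters made up a share of the gained regions like that of the shared ones. The summit lay within 1 kb of a protein-coding start site in 205 of 604 (33.9%, exact 95% interval 30.2 to 37.9%), in 33.0% of shared regions and in 28.4% of the consensus. By protein-coding annotation, promoter regions included, 42.7% of the 604 summits were intronic and 43.2% intergenic, 9.60% lay in a 5′ UTR, 3.15% in a coding exon and 1.32% in a 3′ UTR. Promoter position and HRE split the gained regions into unequal groups. The core was present at 41.5% of the promoter regions and 24.1% of the distal ones, with flanks at 18.3% and 14.5%. In shared regions it was 48.1% and 25.2%. The 85 promoter regions with a core had a median GC content of 67.2% over 201 bases and a median fold of 9.17, and 3 of them (3.53%) were called in all 12 exogenous lists. The 303 distal regions without a core had 47.8% GC and a median fold of 10.5, 58 of them (19.1%) were called in all 12 lists, and 49 (16.2%) held an AP-1 site. The 96 distal regions with a core had the highest median fold, 11.0. Promoter regions were rare among the strongest. In the weakest strength group promoters made up 43.0% of 270 regions without a KIN peak, against 30.2% of 235 with 2 or 3 KIN lists. In the next group it was 32.9% of 161 against 34.6% of 390, and then 23.3% of 103 against 38.1% of 522. In the upper groups it was 21.1% of 57 against 37.4% of 637, and 0% of 13 against 25.8% of 763. The promoter share without a KIN peak was thus higher in the weakest group and lower in the stronger ones.

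Few known HIF targets lay next to a gained region, as few genes of any kind did. A list of 114 genes in 12 groups was used, with a gene counted when a region had its start site as the nearest protein-coding one within 100 kb. Gained regions marked 5 of the 114 genes (4.39%) and shared regions 68 (59.6%). Among all 19663 protein-coding genes the figures were 496 (2.52%) and 1860 (9.46%), so that the share for gained regions stood near that of all genes. At a share of 2.52%, a count of 0 in a list of this size says little. None of the 23 genes of glucose uptake and glycolysis had a gained region, and 18 had a shared one. None of the 12 angiogenesis genes, 6 iron and erythropoiesis genes, 9 matrix and hydroxylase genes and 9 AP-1 subunit genes had one, against 7, 3, 3 and 7 with a shared region. Respiratory switch genes had 2 of 7 with a gained region and 5 with a shared one, and the oxygen sensing, growth, and lipid lists had 1 of 12, 1 of 16 and 1 of 7, against 8, 7 and 3. The 3 pH genes and 6 kidney lineage factors had 0, against 2 and 2. A list of 4 example loci had 0 against 3, and since those loci were picked from these samples the count is not independent evidence. Of the 496 genes next to a gained region, 113 (22.8%) were also the nearest gene of a shared region.

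**Figure D4:**
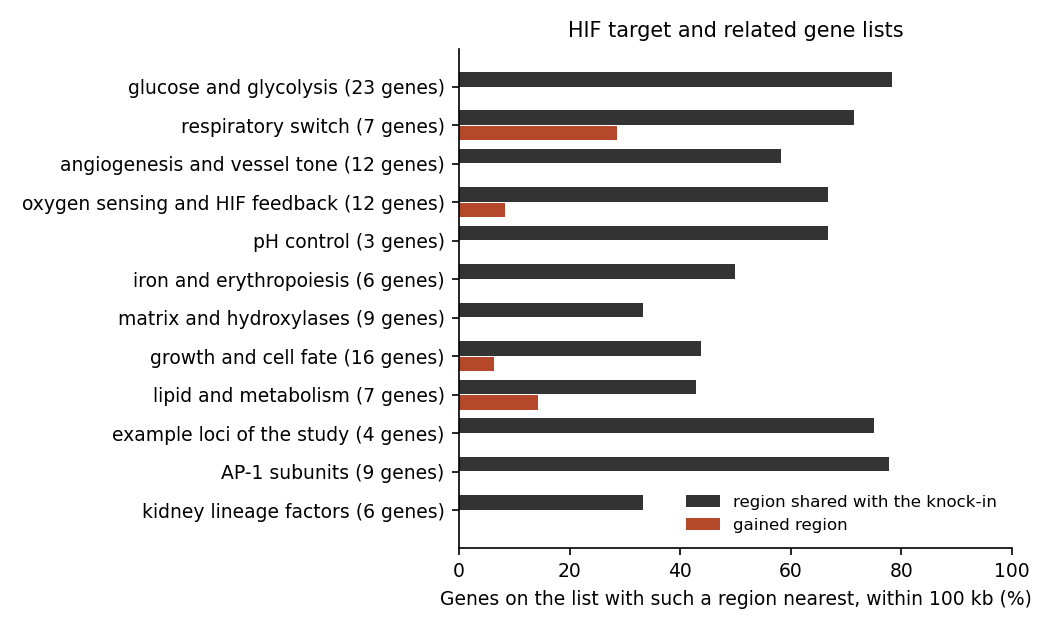
For each of 12 gene lists (y axis, with the number of genes), the percent of genes with a gained region (red) or a shared region (black) whose nearest protein-coding start site is theirs within 100 kb. The respiratory switch list has 2 genes with a gained region, 3 other lists have 1 each and the remaining 8 have 0.

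The 5 listed genes fell into metabolic control, feedback and growth. At NDUFA4L2, a mitochondrial protein induced by HIF that lowers complex I activity, the gained region (chr12:57234105-57235721) had its summit in the 3′ UTR, 1.79 kb into the gene and 44 bp from a core. Its fold was 33.5 and 7.84 in HIF-2a replicates 2 and 3, 6.40 and 19.0 in HIF-2a/1a replicates 1 and 2, 18.0, 48.5 and 20.7 in HIF-1a, and 13.6, 62.5 and 23.7 in HIF-1a/2a. HIF-2a replicate 1 and HIF-2a/1a replicate 3 held no peak there. At PDK3, a kinase that restrains pyruvate entry into mitochondria, the region lay in an intron 29.7 kb from the start site and held an AP-1 site but no HRE core within 500 bp. Its fold was 5.79 to 8.78 in HIF-2a and 8.48 to 19.9 in the other 9 libraries, with 8 of the 9 above all HIF-2a values. Near CITED2, which competes with HIF for the coactivator p300, the region lay 28.6 kb upstream, 4194 bp from the nearest KIN peak. Its fold was 14.2, 43.6 and 7.01 in HIF-2a and 4.19 to 17.0 in the rest, so that 1 library stood apart. At IGFBP3, a growth factor binding protein, the region lay 1.68 kb upstream with a fold of 4.16 to 25.9 in 11 libraries. At LPIN1, a phosphatidate phosphatase, it lay 43.2 kb downstream of the start site, in intergenic sequence, with 3.60 to 16.5 in 8 libraries.

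Among promoter regions with a core, those with the highest mean centred log2 fold lay at CDK10, CANX, DDAH1, TUBB6, MDM2, DPYSL4, SHLD2 and TRIM37. CDK10, a cyclin-dependent kinase gene, had its region (chr16:89686577-89688004) in an intron 832 bp from the start site, with a mean fold of 24.4. The values ran from 9.11 to 48.5 in HIF-2a/1a and from 15.3 to 62.3 in HIF-1a, and the lines overlapped. The region at CANX, an endoplasmic reticulum chaperone gene, lay on a coding exon of the neighbouring CBY3 and was called in all 12 lists. It had 6.80, 10.9 and 12.8 in HIF-2a, 19.3, 25.2 and 14.7 in HIF-2a/1a, 27.7, 47.6 and 31.0 in HIF-1a and 8.04, 16.8 and 13.9 in HIF-1a/2a. All 3 HIF-1a values lay above the other 9 there. DDAH1, which degrades an inhibitor of nitric oxide synthesis, had a core 1 bp from the summit and a fold of 5.76 and 14.1 in HIF-2a, 11.0 to 17.3 in HIF-2a/1a, 16.1 to 26.3 in HIF-1a and 18.1 to 33.4 in HIF-1a/2a. At MDM2, the ubiquitin ligase of p53, 11 lists held a peak 26 bp from the start site with a fold of 4.35 to 21.1. At TRIM37, a ubiquitin ligase gene, the fold was 6.93 to 27.9, and at the tubulin gene TUBB6 it was 5.32 to 35.4. DPYSL4, a gene of neuronal growth cones, had 9 calls of 5.02 to 34.0, and SHLD2, of the shieldin complex in DNA repair, had 12 of 7.59 to 25.5. The HIF-1a range at TUBB6 and the HIF-2a/1a range at TRIM37 enclosed the values of all other lines.

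The 12 strongest regions called in all 12 exogenous libraries, by mean centred log2 fold, were all distal. Their nearest genes were PPP2R2C, TFCP2L1, GFRA2, ASTN2, SEMA6A, OSR1, LAMA4, SLAMF7, TCF7L2, KCNJ6, NEDD4L and ARG1, and the summit lay 1.48 kb from the start site at KCNJ6, a potassium channel gene, and farther away at the others. None was within 1 kb. PPP2R2C led with 53.5, 168 and 18.1 in HIF-2a, 14.1, 62.7 and 7.79 in HIF-2a/1a, 11.6, 59.2 and 26.7 in HIF-1a and 17.8, 96.5 and 32.9 in HIF-1a/2a. In all 4 lines replicate 2 gave the highest value. ASTN2 had 139 in HIF-2a replicate 2 and 11.2 to 46.4 in the other 11 libraries. TFCP2L1, named for a transcription factor gene of kidney collecting ducts 191 kb away, had 12.2 to 73.9. GFRA2, a receptor gene for neurturin, had 29.8 to 43.2 in HIF-2a, 22.8 to 42.7 in HIF-2a/1a, 7.92 to 30.8 in HIF-1a and 16.3 to 54.5 in HIF-1a/2a. At TFCP2L1 all 3 values of HIF-2a/1a lay above those of HIF-1a/2a, while the ranges of all lines overlapped at PPP2R2C, ASTN2 and GFRA2. The region near OSR1 had 18.4, 36.0 and 13.3 in HIF-2a, 20.7, 52.2 and 24.7 in HIF-2a/1a, 18.0, 51.3 and 23.5 in HIF-1a and 12.7, 36.5 and 16.2 in HIF-1a/2a, so that replicate 2 was again highest in each line. SEMA6A, which encodes a guidance semaphorin, had 14.3 to 48.3 in HIF-2a, 22.5 to 48.5 in HIF-2a/1a, 12.8 to 23.0 in HIF-1a and 12.2 to 66.8 in HIF-1a/2a. LAMA4 had 10.1 to 24.3 in HIF-2a and 12.0 to 49.2 in the other lines. KCNJ6 had 11.3 to 52.2, NEDD4L, a ubiquitin ligase gene acting on sodium channels, 8.99 to 43.8, and ARG1, the liver arginase gene, 8.32 to 67.4.

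Calls in each of the 4 exogenous lines and no call for endogenous HIF-2a in the knock-in chose the regions. The size of a difference between the exogenous lines was not used and is compared here. The log2 fold of each library was centred on its median over the 2720 regions called in all 12 exogenous libraries, and limma was fitted to all of these with Benjamini-Hochberg adjustment. Of the gained regions 97 were among them. Since 424 gained regions lacked a HIF-2a list, the 97 are those with a peak in the 2 shorter HIF-2a lists too, and a high HIF-2a fold is part of what kept them. The rule itself also asked for no peak of the knock-in, whose HIF-2a has the same DBD and IDR as the exogenous HIF-2a. It may thus have kept regions where HIF-2a is weak. How these selections shift the IDR and DBD differences was not tested. The counts and directions of the 97 are a description, and p-values of single gained regions carry the same limit.

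For the IDR the regions called were stronger with the IDR of HIF-2a, the side that the filter for calls in all 12 libraries favours. The IDR difference, HIF-1a and HIF-2a/1a minus HIF-2a and HIF-1a/2a, passed an adjusted p of 0.05 in 7 of the 97 (7.22%), all 7 lower with the HIF-1a IDR. Over all 2720 regions 62 passed (2.28%), 15 higher and 47 lower. A wider fit took regions called in at least 10 of 12 exogenous libraries, which admits regions absent from the short HIF-2a lists. There limma called 10 of 488 gained regions (2.05%), all 10 lower, against 1.08% of 5655 regions. A list without a call gave no value in that fit, so HIF-2a means rest on called lists only. The direction there stays a description too. The median difference was -0.15 over the 97 and -0.06 over all, and 58 of the 97 were negative. Near TRHR, a gene for the thyrotropin-releasing hormone receptor, the fold was 16.9, 17.2 and 26.7 in HIF-2a and 48.9, 108 and 28.1 in HIF-1a/2a, against 8.45, 17.9 and 13.3 in HIF-2a/1a and 5.32, 14.4 and 12.4 in HIF-1a. The log2 difference was -1.83 ± 0.35 (SE, limma adjusted p = 3.0e-04), although HIF-2a/1a replicate 2 exceeded 2 HIF-2a values. At CYTIP, which encodes a cytohesin-binding protein of immune cells, it was -1.69 ± 0.35 (limma adjusted p = 9.7e-04). The fold there was 23.9, 45.3 and 34.7 in HIF-2a and 26.2, 17.3 and 23.2 in HIF-1a/2a, against 5.56, 20.0 and 11.1 in HIF-2a/1a and 8.99, 7.96 and 13.4 in HIF-1a. The sides overlapped in 1 value of each chimera. TSPYL5 had -1.47 ± 0.35 (limma adjusted p = 0.0096), with 8.54 to 32.2 in HIF-2a overlapping 6.75 to 11.9 in HIF-2a/1a and 4.61 to 14.5 in HIF-1a. At KCNA5, a voltage-gated potassium channel gene, HIF-2a gave 13.4, 36.5 and 8.52, HIF-1a/2a 23.8, 25.6 and 23.9, HIF-2a/1a 9.49, 10.5 and 12.3, and HIF-1a 5.99, 12.7 and 9.08. The difference was -1.32 ± 0.34 (limma adjusted p = 0.017), with 1 HIF-2a value below all of HIF-2a/1a. SLAMF7, a receptor gene of immune cells, had -1.32 ± 0.35 (limma adjusted p = 0.022). PPP2R2C also passed, with -1.33 ± 0.36 (limma adjusted p = 0.031). It did not pass with quantile normalization (limma adjusted p = 0.062).

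The DBD difference, HIF-1a and HIF-1a/2a minus HIF-2a and HIF-2a/1a, passed in 4 of the 97 regions (4.12%) and in 86 of 2720 (3.16%), so that the gained regions stood near the background. Among regions called in at least 10 of 12 libraries it was 10 of 488 (2.05%) against 2.18%. Of the 4, 3 were higher and 1 was lower with the HIF-1a DBD. Over all 2720 regions 58 were higher and 28 lower, so the same lean was present there. In the wider fit 9 gained regions were higher and 1 lower, against 98 and 25 of all regions. At PIGT, a gene for attaching membrane anchors, the fold was 5.91, 4.17 and 5.46 in HIF-2a, 5.50, 5.47 and 4.11 in HIF-2a/1a, 30.8, 15.1 and 18.7 in HIF-1a and 13.3, 26.1 and 12.7 in HIF-1a/2a. The sides did not overlap, and the log2 difference was 1.88 ± 0.35 (limma adjusted p = 1.2e-04). At the promoter of WNT2B, a Wnt ligand gene, the HIF-1a DBD gave 11.2 to 36.3 and the HIF-2a DBD 4.75 to 7.18, a log2 difference of 1.51 ± 0.35 (limma adjusted p = 0.0034). In an intron of TCF7L2, a transcription factor gene of the Wnt pathway, the difference was 1.78 ± 0.35 (limma adjusted p = 3.3e-04). HIF-1a/2a gave 59.8, 79.3 and 33.7 there, and 1 HIF-2a/1a value, 40.3, lay among those of the HIF-1a DBD. PIGT, WNT2B and TCF7L2 passed in all 17 alternative fits.

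**Figure D5:**
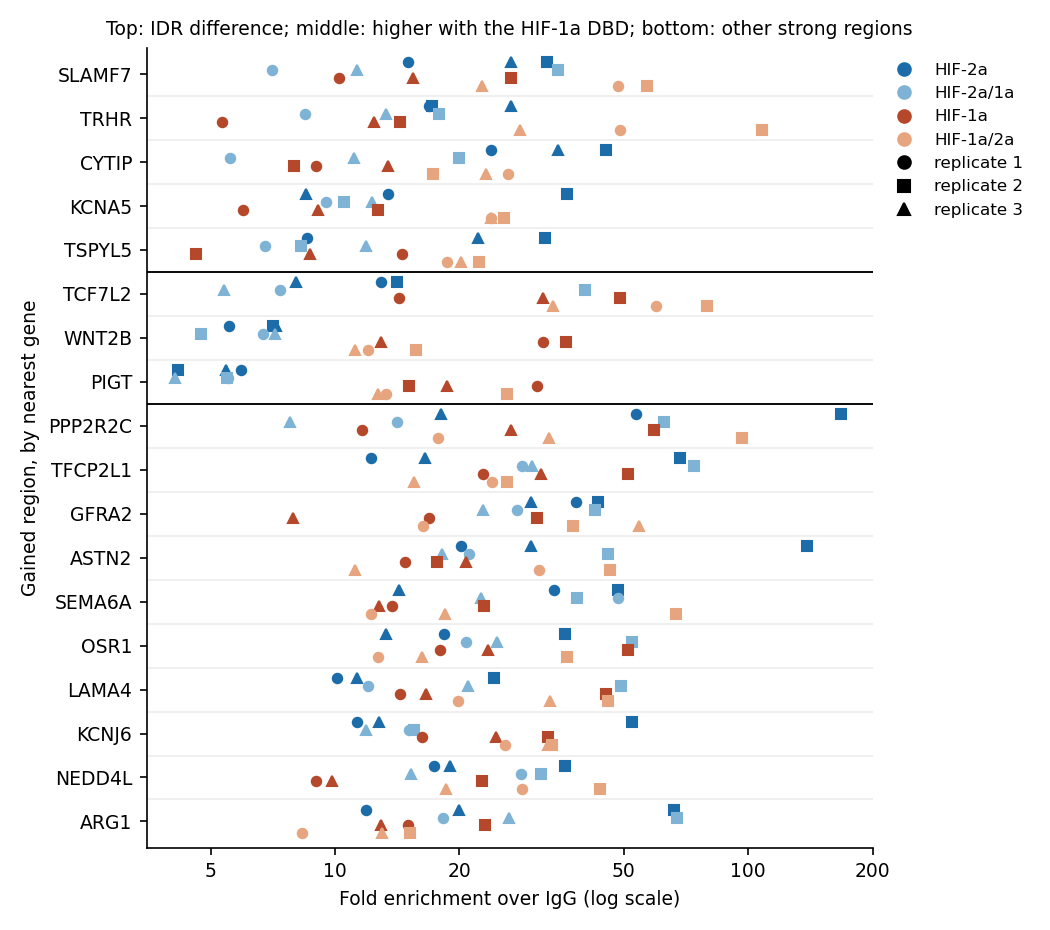
Fold enrichment over IgG (x axis, log scale) in each of the 12 exogenous libraries at 18 gained regions named by their nearest gene (y axis). Colour gives the line and shape the replicate. At the 5 regions on top the HIF-2a IDR lines lie mostly to the right, and in the middle group, TCF7L2, WNT2B and PIGT, the HIF-1a DBD lines do. PPP2R2C, which also passed for the IDR, stands in the bottom group with the other strong regions.

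For the dependence of the IDR difference on the DBD (the interaction), limma called 0 of the 97 gained regions and 0 of 2720 regions (0%). At an unadjusted limma p under 0.05 there were 13 of the 97 and 141 of the 2720. The median was 0.31 over the 97 and -0.02 over all, with 62.9% and 49.0% positive. HIF-2a enters this difference with a plus sign, so the filter for calls in all 12 libraries favours positive values here. Fragments at the summit, the alternative measure, gave more calls. By limma on this measure the IDR difference passed in 51 of the 97 regions (52.6%) against 44.0% of all 2720, with 34 lower and 17 higher with the HIF-1a IDR. The DBD difference passed in 35 (36.1%) against 32.8%, and the interaction in 1 against 0.294%. The named IDR and DBD regions kept their direction and passed on this measure too.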

How the data were processed

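Groups and replicate numbers came from the sample labels. Per the methods, the authors aligned reads to hg38 with bowtie2 2.3.4.1 and SAMtools 1.8, called peaks per anti-V5 library against IgG with MACS2 at a q-value of 0.01, and removed blacklisted regions with bedtools 2.28.0. The deposited lists give a fold enrichment (ratio over local background) and −log10 p and q for each summit. IgG libraries enter only through these calls. The lists state no read totals. From these deposited values (fold as pileup plus 1 over background plus 1) the fragments at each summit were worked out. They matched within 0.001 for 100% of peaks with a −log10 p below 100 in each library, after a scale of 0.9493 in HIF-2a/1a replicate 2. Positions are 1-based on hg38, genes from GENCODE 44. limma 3.58.1 (R 4.3.3, trend) used 4 group means without a block and was tested on simulated data.

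The members, gene lists and motifs were chosen with earlier results of these data known. Named regions were the 12 strongest called in all 12 exogenous libraries, those next to a listed gene, the 5 with the smallest p per direction among those called by IDR or DBD, and the 8 strongest promoter regions with an HRE. The values of 1 region called by DBD are not reported here. Labels do not say whether replicates were separate cultures, so p-values measure the spread between these libraries. Copy number and protein level were not measured here. Alternatives changed list length, thresholds, overlap, windows, measure, normalization, pairing and single libraries. Tools were Python with pandas 2.3.3, SciPy 1.17.1, pysam 0.24.0 and matplotlib 3.10.9.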

Additional observations from a re-analysis of the deposited data

How the results depend on the processing

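The number of gained regions depended most on list length and on the calls demanded. It was 93 with every list at the 3984 peaks of the shortest tagged list and 97 with 3 of 3 lists of each exogenous line, and 182 to 1095 when single libraries were left out. The HRE share was 22.7% in those 97 regions, 56.3% with 100 bp to each side, 89.1% over the whole region and 3.15% for TACGTG, and 28.0 to 32.4% without single libraries. The promoter share was 20.6% in those 97 regions, 30.1% within 500 bp, 39.4% with the start sites of all annotated genes and 21.4 to 37.0% without single libraries. At 3 of 3 lists the regions are stronger and fewer, and both shares were lower.

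Calls by IDR were 51 of 97 with fragments at the summit, 10 of 488 over regions called in at least 10 of 12 libraries, and 4 to 7 without single libraries, the lowest without HIF-2a/1a replicate 1 or HIF-1a replicate 1. Calls by DBD were 35 with fragments, 10 of 488 over those same regions, and 4 to 6 without single libraries. Calls by interaction were 1 with fragments and 0 to 0 without single libraries. With the replicate block the calls were 8 by IDR, 5 by DBD and 0 by interaction, and 105 and 121 of all 2720 regions by IDR and DBD against 62 and 86. Libraries of the same number deviated together weakly (mean correlation over regions 0.087, lowest 0.029). Those of different number had a mean of -0.044 (-0.118 to 0.062). Labels do not say what the numbers share, and the main fit did not take them as pairs. PPP2R2C lost its IDR call in 7 of 12 fits without 1 library and SLAMF7 in 4. KCNA5 and TSPYL5 lost it in 1 each, and CYTIP and TRHR in none. No named difference changed sign. Weak peaks rest on few fragments, and a gained region is one where the KIN lists made no call.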

Other observations

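Chromosome 18 held 19 gained regions, 3.15% of them, against 1.18% of shared and 1.81% of consensus regions. Chromosome 21 held 16, or 2.65%, against 1.30% and 1.49%, while chromosome 17 held 20, or 3.31%, against 6.28% and 5.19%. Gained regions were scattered. Neighbouring summits stood within 10 kb of each other in 5 cases and within 100 kb in 29, and 27 genes were nearest to at least 2 gained regions, 3 of them to at least 3. ETS sites (CCGGAAG, both strands) were within 50 bp of the summit in 2.32% of gained and 2.39% of shared regions.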
